A study of Mus musculus with 8 samples.

Results

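In a set of 8 mouse colon tumor arrays, 2 arrays carried far more Axin2 RNA than the others, and the gene expression of these 2 Axin2-high tumors was set against that of the 6 Axin2-low tumors. All 8 samples came from mice carrying the Apc min mutation (APCmin/+) on a C57BL/6J-FVBN mixed strain, and all mice were 8 months old. In 4 tumors, the control genotype, the mice also carried VP16, a viral transcriptional activation domain (VP16, replicates 1 to 4). In the other 4 they carried VP16LXRa, in which that domain is joined to the liver X receptor alpha, a nuclear receptor for oxysterols (VP16LXRa, replicates 5 to 8). The promoter that drives either transgene and the cells that carry it are not given in the sources used here, nor is it stated whether different mice gave these tumors.

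Apc is part of the complex that marks β-catenin for destruction when Wnt ligands are absent, and its loss lets β-catenin switch on target genes with TCF/LEF factors. Axin2, a scaffold of the same complex, is itself such a target and works as a feedback inhibitor, so its RNA is widely used as a readout of the pathway. In the normal colon Wnt signalling is high in the stem cells at the crypt base and falls as cells climb the crypt and become absorptive colonocytes, mucus-secreting goblet cells or hormone-secreting enteroendocrine cells.

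The tumors were selected on the level of Axin2 itself, for which the array has 1 probe. In the authors' deposited processed intensities it stood at 2588.1 in VP16 replicate 1 and at 2952.5 in VP16LXRa replicate 5, above the chosen limit of 1200, and the highest value below that limit was 550.4. On the scale used from here on, log2 intensity after background correction and quantile normalization, Axin2 was 11.35 and 11.54 on these arrays and 8.51 to 9.15 on the 6 others, with a median of 8.80. Each genotype thus has 1 Axin2-high and 3 Axin2-low tumors. Because Axin2 chose the arrays, every difference between them is given as a description with no test. Tests were kept for what the choice leaves free, the difference between the 2 Axin2-high tumors and the difference between the genotypes.

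Each array detected 11469 to 12257 of the 25697 probes. Those detected on at least 2 arrays, 13177 probes of 9995 genes, were examined. A probe was called when its log2 difference, adjusted for genotype, was at least 1 and both Axin2-high arrays lay outside the range of all 6 Axin2-low arrays. By this rule 935 probes (7.1%) were higher and 905 (6.87%) lower in the Axin2-high tumors. They stand for 784 and 763 genes, and over all probes the median difference was 0.0. With 340 probes whose arrays did not overlap lying between 0.9 and 1 log2 unit and 279 between 1 and 1.1, the limit of 1 falls within a continuum. A difference of at least 8-fold was reached by 93 of the higher and 74 of the lower probes, and 243 probes were detected on both Axin2-high arrays and on no other. Such probes entered only through the Axin2-high side and had to be higher, so counts on that side are descriptions of the genes that entered. When detection on at least 4 arrays was asked for, 708 probes were called higher and 901 lower. Under that filter, 4 of 6 Wnt feedback inhibitors, 7 of 12 Wnt target genes, 7 of 10 metalloproteinases and inhibitors, 10 of 13 inflammatory mediators and 3 of 4 neutrophil genes were called higher.

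The labelled tissue was checked against markers of colon epithelium, which do not tell tumor from normal colon. How much normal colon each sample held was not tested. The pan-epithelial genes Cdh1, Krt8, Krt18 and Krt19 were detected on all 8 arrays, with log2 differences between -0.32 and 0.39. They belong to a list of 12 general epithelial genes with a median of -0.18 and 4 positive differences. Lower members were Cldn7 (-0.49), Vil1 (-0.58), Cdx1 (-1.34) and Cdx2 (-4.36). For VP16LXRa replicate 5 the summed intensity of this list, 46955, lay below every Axin2-low array (51922 to 74236). VP16 replicate 1, with 60830, lay within that range. Markers of mature colon cells were not detected everywhere. On VP16LXRa replicate 5 the colonocyte genes Aqp8 and Car4 and the goblet cell genes Clca3 and 1810010M01Rik were not detected, while VP16 replicate 1 and all Axin2-low arrays detected them. The Axin2-high arrays correlated more closely with each other (r = 0.951 across probes) than with any Axin2-low array (0.838 to 0.925). Without VP16 replicate 1 the calls were 1258 higher and 1341 lower, and without VP16LXRa replicate 5 they were 950 and 877. In bulk RNA of this kind, fewer cells of a type and less RNA per cell cannot be told apart.

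The genes listed as feedback inhibitors of the Wnt pathway were higher in the Axin2-high tumors as a group. Of 9 such genes examined, 6 were called higher and none lower, with a median log2 difference of 1.95. Axin2, which chose the arrays, is one of them, and without it 5 of 8 were called, with a median of 1.52. Notum, a secreted enzyme that inactivates Wnt proteins by removing their lipid, reached 10.08 on VP16 replicate 1 and 9.82 on VP16LXRa replicate 5, against 4.48 to 6.79 (median 4.60) in the Axin2-low tumors, 1 of which detected it. Both Axin2-high values lay more than 3 log2 units above the highest of the others. Wif1, which binds and sequesters Wnt ligands, was 9.79 and 9.68 against 4.52 to 7.75 (median 5.07), detected on 3 of the 6 Axin2-low arrays. Apcdd1, a membrane-bound inhibitor of Wnt reception, was 8.28 and 9.11 against 4.52 to 5.85 (median 4.85). Rnf43, the ubiquitin ligase that removes Frizzled receptors from the cell surface, was 7.27 and 7.17 against 4.77 to 5.78 (median 5.29). For all of these the groups did not overlap. Dkk3, counted here only as a member of the Dickkopf family, had a smaller difference of 1.09 (SD of the Axin2-low arrays 0.67, n = 6). Whether it acts as a feedback inhibitor was not tested. The remaining members, Nkd1 (0.46), Nkd2 (-0.61) and Sfrp1 (0.16), overlapped between the groups.

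Wnt target genes followed, with 9 of 16 called higher, none lower, and a median log2 difference of 1.09. Sp5, a zinc finger factor that is among the most direct targets of β-catenin, was 8.92 and 10.32 in the Axin2-high tumors against 4.45 to 6.39 (median 4.81). Prox1, a homeobox factor known from colon tumor progression, was 8.80 and 8.85 against 4.64 to 6.24 (median 4.85). This probe differed by 3.80, and the other Prox1 probe by 1.03. Among the genes of intestinal stem cells, Ascl2 was 7.27 and 7.79 against 4.94 to 5.95 (median 5.50) and the R-spondin receptor Lgr5 was 7.09 and 6.37 against 4.61 to 6.08 (median 5.19). Lgr5 thus cleared the other arrays narrowly in VP16LXRa replicate 5. The cell cycle gene Ccnd1 was 13.07 and 12.93 against 11.34 to 11.71 (median 11.53), a 2.77-fold difference with a spread of 0.13 (SD, n = 6, log2) on the Axin2-low side, and its other 2 probes differed by 1.54 and 2.00. Tnfrsf19 (1.35), Cdca7 (1.32), the adhesion receptor Cd44 (1.17) and Ets2 (1.02) were also called. Myc, the proliferation factor most often named as a Wnt target in this tissue, was 5.39 and 5.41 against 4.42 to 5.60 and was not called. Sox9 (0.56), Sox4 (0.79), Tcf7 (0.73), Ephb2 (0.89), Ccnd2 (1.00) and Id3 (0.63) had positive differences that did not meet the rule either.

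The promoter of Sp5 is shown because it holds the letters CTTTGAT, a core that TCF/LEF factors recognise, on either strand. It runs from 250 bases before to 50 after the start (RefSeq, GRCm38.p6, chr2:70474673-70474972, plus strand), and capitals mark the match, which begins 104 bases before the start.
Sp5: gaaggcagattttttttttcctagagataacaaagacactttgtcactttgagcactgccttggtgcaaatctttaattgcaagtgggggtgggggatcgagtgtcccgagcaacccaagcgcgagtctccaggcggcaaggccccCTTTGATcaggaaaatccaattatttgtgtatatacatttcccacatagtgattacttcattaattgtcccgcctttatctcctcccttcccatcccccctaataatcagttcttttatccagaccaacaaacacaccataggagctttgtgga
These letters were found in 2 of the 14 promoters that the table holds for Wnt target genes, in none of 6 for the feedback inhibitors, and in 3.73% of all 32851 promoters. The share was 2.62% for promoters of all genes examined, 4.01% for genes called higher and 2.77% for genes called lower. Such a match describes the window and is no evidence of binding.

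**Figure D1:**
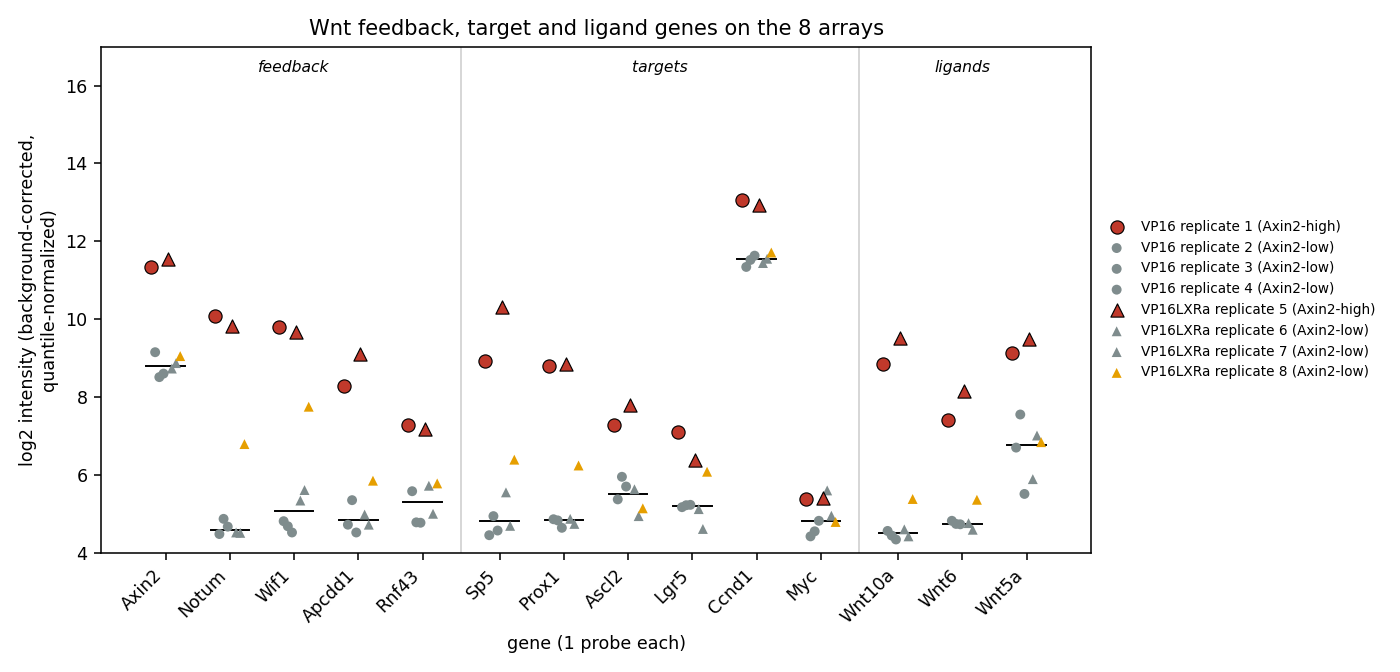
Log2 intensity (vertical axis) of Wnt feedback, target and ligand genes on each of the 8 arrays, with circles for VP16, triangles for VP16LXRa, large red symbols for the Axin2-high tumors, orange for VP16LXRa replicate 8 and a bar at the median of the 6 Axin2-low arrays. Notum stands at 10.08 and 9.82 on the red symbols and at most 6.79 elsewhere, while Myc overlaps.

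Of 22 Wnt ligands, receptors and signal transducers examined, 3 were called higher and 1 lower, and the median log2 difference was 0.30. Over all genes, 7.57% were called higher and 7.08% lower by their brightest probe. The 3 higher genes encode ligands, and with detection on at least 4 arrays 1 of 19 genes was higher, since no Axin2-low array detected the other two. Wnt10a was 8.84 and 9.51 against 4.34 to 5.38 and was detected on no Axin2-low array, which puts it at least 13.9-fold higher. Wnt6 was 7.42 and 8.16 against 4.59 to 5.36, also detected on no Axin2-low array and at least 5.3-fold higher. Wnt5a, a ligand known for signalling without β-catenin, was 9.14 and 9.50 against 5.51 to 7.55 (median 6.77). The gene called lower was the receptor Fzd5, at 9.78 and 8.65 against 10.67 to 10.95. Apc itself (-0.29) and the β-catenin gene Ctnnb1 (0.66) were not called, and a log2 level of Apc RNA does not tell the mutant from the normal allele.

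Genes of mature colonocytes lay on the lower side, with 21 of 28 called lower, none higher and a median log2 difference of -2.27 (-1.33, with 20 called, without VP16LXRa replicate 5). Aqp8, a water channel of the surface epithelium, stood at 9.17 on VP16 replicate 1 and 4.54 on VP16LXRa replicate 5, against 12.41 to 13.20 (median 12.89). Car4, a carbonic anhydrase of the brush border, was 9.94 and 4.68 against 12.67 to 13.43 (median 13.23). Krt20, the keratin of differentiated intestinal cells, was 11.23 and 5.36 against 12.48 to 13.59 (median 12.81). In all 3 the Axin2-high tumors lay below every other tumor, and VP16LXRa replicate 5 lay far below VP16 replicate 1. Dpep1, a dipeptidase of the apical membrane, was low to a like extent in both, at 6.50 and 6.38 against 11.63 to 12.06. The transporters Slc13a2 (8.61 and 5.35 against 11.37 to 11.94) and Slc5a8, which takes up short-chain fatty acids (10.36 and 5.09 against 11.27 to 12.54), were lower too. Sodium channel subunits did not move together: Scnn1a was called lower (-1.79), while Scnn1b (0.54) and Scnn1g (0.45) overlapped. Guca2a, a peptide that drives chloride secretion, was 13.67 and 10.83 against 15.04 to 15.47.

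Cdx2, the homeobox factor that maintains intestinal identity, was 9.17 and 6.05 in the Axin2-high tumors against 11.68 to 12.16 (median 12.06), and its relative Cdx1 was 9.78 and 9.33 against 10.76 to 11.09. Neither overlapped. The tight junction gene Cldn4 went the other way, at 12.81 and 12.48 against 9.22 to 10.17. The remaining 9 of 12 general epithelial genes were not called. The promoter of Aqp8 is shown beside Cdx2 because it holds the letters TTTATNG, a core that CDX factors recognise, on either strand (RefSeq, GRCm38.p6, chr7:123462044-123462343, plus strand, with the match in capitals 6 bases before the start).
Aqp8: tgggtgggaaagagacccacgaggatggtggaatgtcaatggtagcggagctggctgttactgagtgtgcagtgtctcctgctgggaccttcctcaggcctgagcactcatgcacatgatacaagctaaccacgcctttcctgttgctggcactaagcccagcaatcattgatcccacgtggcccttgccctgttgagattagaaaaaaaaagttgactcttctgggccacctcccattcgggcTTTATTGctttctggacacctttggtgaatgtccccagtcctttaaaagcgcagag
The same letters were found in 6 of the 19 promoters of colonocyte genes (31.6%), those of Aqp8, Car4, Ceacam20, Cyp2c55, Krt20 and Mep1a, and in 10.9% of all promoters. They were also found in the inflammatory mediators, which lay on the opposite side, with 6 of 15 promoters (40.0%). The letters touch those of a TATA box, TATAAA, in 2 of the 6 colonocyte promoters and in 5 of the 6 inflammatory ones. The share with the CDX letters was 7.5% for promoters of all genes examined. It was 9.62% for genes called lower and 9.31% for genes called higher, so the letters did not separate the 2 sides.

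Goblet cell genes were called lower in 11 of 14 cases, with none higher and a median log2 difference of -2.43. Without VP16LXRa replicate 5 the median was -1.31 with 9 called, and without VP16 replicate 1 all 14 were called. Retnlb, a secreted antibacterial protein, had the largest difference of any named gene on the lower side, at 8.25 and 7.53 against 13.24 to 15.37 (median 14.93), 112-fold. Clca3 (now Clca1), a mucus-processing protease, stood at 13.27 on VP16 replicate 1 and 4.72 on VP16LXRa replicate 5 against 14.43 to 15.47. The last value is the top of the normalized scale, so that differences among the brightest probes may be compressed. Spdef, a transcription factor of goblet cell maturation, was 7.00 and 6.71 against 8.89 to 10.08. Agr2, which folds mucins, was 6.78 and 5.74 against 8.42 to 8.81. Ang4 was 11.07 and 10.70 against 11.08 to 15.09, and its lowest Axin2-low array, VP16 replicate 4, was level with the Axin2-high ones. Tff3 (-1.22), Spink4 (-1.06) and 1810010M01Rik were not called, since VP16 replicate 1 or both Axin2-high tumors lay within the range of the others.

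Of 16 enteroendocrine genes, 9 were called lower, 1 was called higher, and the median log2 difference was -1.39. The proglucagon gene Gcg was 6.78 and 4.50 against 9.15 to 11.35. Insl5, a hormone of distal colon L cells, was 8.40 and 4.41 against 9.99 to 11.32. Somatostatin (Sst) was detected on neither Axin2-high array and on all others, at 6.68 to 9.60, at least 7.8-fold higher there. Secretin (Sct) was 7.17 and 7.05 against 9.29 to 10.40. Neurog3, the factor that commits progenitors to this lineage, was detected on neither Axin2-high array, with a difference of -1.54. Peptide YY (Pyy) did not follow, at 12.52 and 12.25 against 11.44 to 12.25, and Isl1, a homeobox factor, was higher at 9.92 and 9.30 against 6.23 to 7.43. Of 6 tuft cell genes, Avil was called higher (10.33 and 10.44 against 6.64 to 7.84) and Dclk1 lower (5.68 and 5.57 against 6.02 to 6.99), with the other 4 not called. By comparison, 7.57% of all genes were called higher and 7.08% lower.

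**Figure D2:**
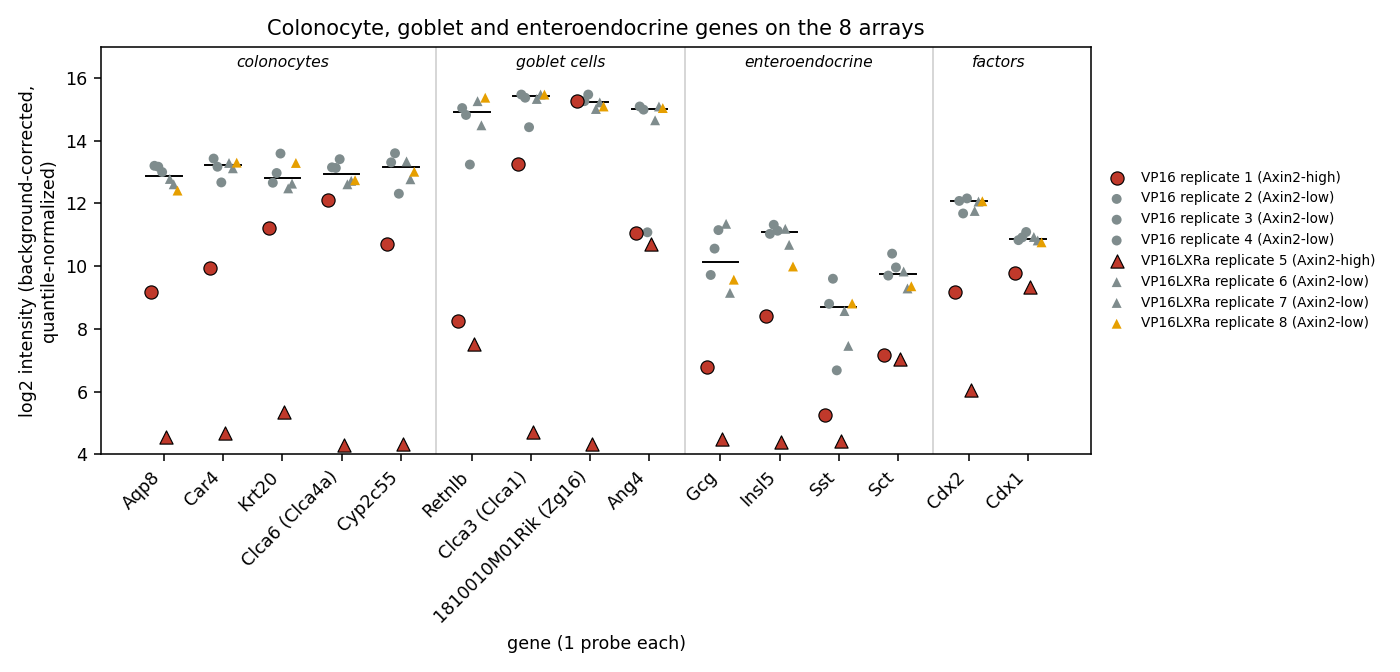
Log2 intensity (vertical axis) of colonocyte, goblet cell and enteroendocrine genes and of the factors Cdx2 and Cdx1 on each of the 8 arrays, with symbols and median bars as in the plot of Wnt genes. The red triangle of VP16LXRa replicate 5 lies near 4.5 for Aqp8, Car4 and 1810010M01Rik, where the red circle of VP16 replicate 1 stands at 9.17, 9.94 and 15.26.

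Metabolic genes of the surface epithelium lay on the same side as the colonocyte genes, with which these lists share members such as Cyp2c55 and Sult1a1. Of 18 genes of xenobiotic metabolism, 16 were called lower and 2 higher (median -2.07). Cyp2c55, a cytochrome P450 of the large intestine, was 10.71 and 4.33 against 12.31 to 13.60. Sult1a1, a sulfotransferase, was 9.09 and 7.03 against 12.20 to 12.91. The retinaldehyde-oxidising enzyme Aldh1a1 was 5.39 and 4.64 against 7.81 to 8.78. The exceptions were the glutathione transferases Gsta3 (1.62) and Gsta4 (1.54), while Gsta1 (-2.18), Gsta2 (-1.87), Gstm1 (-1.11) and Gstt1 (-1.87) were lower. In ketogenesis and fatty acid oxidation 9 of 18 genes were lower and 1 higher (median -1.06). The nuclear receptor Pparg was 8.81 and 8.35 against 9.55 to 10.36, and its coactivator relative Ppargc1b was 8.59 and 8.43 against 10.02 to 10.78. Angptl4, an inhibitor of lipoprotein lipase, was the gene called higher (8.09 and 8.83 against 5.21 to 6.64).

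Matrix metalloproteinases held the largest difference of all named genes. Of 13 proteases and inhibitors, 10 were called higher and none lower, with a median log2 difference of 2.91. Mmp10 (stromelysin 2) was 12.95 and 13.26 in the Axin2-high tumors against 4.65 to 9.26 (median 5.36), and 3 of the 6 Axin2-low arrays detected it. Mmp13, a collagenase, was detected on every array, at 13.95 and 13.31 against 7.14 to 9.81 (median 7.52), and its other probes differed by 1.39 and 3.75. Mmp9 (gelatinase B) was 9.53 and 10.72 against 5.37 to 6.93, and Mmp3 (stromelysin 1) 10.07 and 8.71 against 4.88 to 6.25. Mmp7 (matrilysin) was 7.90 and 8.31 against 4.39 to 7.27, the last value being that of VP16LXRa replicate 8 alone. Mmp14, the membrane-anchored protease that activates Mmp2, was 12.43 and 12.92 against 10.19 to 10.97, and Mmp2 itself was 11.74 and 11.86 against 9.07 to 10.33. The inhibitor Timp1 was 10.11 and 9.60 against 6.29 to 7.71, whereas Timp2 (0.86), Timp3 (1.09) and Mmp15 (0.27) were not called.

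Inflammatory mediators were called higher in 13 of 17 cases, with none lower and a median log2 difference of 2.07. Cxcl1, a chemokine that attracts neutrophils, was 10.70 and 11.20 against 4.82 to 7.07 (median 5.51). Cxcl2, its neighbour on chromosome 5, was 7.91 and 8.61 and was detected on no Axin2-low array, at least 7.35-fold higher. Il11, a cytokine of the interleukin 6 family, was 10.71 and 10.15 against 4.79 to 5.81, and Il1b was 11.19 and 11.48 against 6.52 to 7.85. In each of these 4 genes both Axin2-high tumors stood above all others. Osm (3.26), Il23a (2.22), Il1a (2.12), Icam1 (2.07) and Tnf (1.98) were called as well, while the interferon-induced chemokines Cxcl9 (0.63) and Cxcl10 (0.58) overlapped. Of 13 interferon response genes none was called higher and 1, Irf7, was called lower (6.95 and 6.40 against 7.64 to 10.10). Over all genes 7.08% were called lower. Without VP16LXRa replicate 6, 6 of the interferon response genes were lower.

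The promoters of Cxcl1 and Cxcl2 are shown because both hold matches to GGNNTTTCC, letters of the κB site that NF-κB binds, searched on both strands and marked in capitals. They lie 89 and 70 bases before the start in Cxcl1 (chr5:90890995-90891294, plus strand) and 96 and 77 bases before it in Cxcl2 (chr5:90903649-90903948, plus strand; RefSeq, GRCm38.p6).
Cxcl1: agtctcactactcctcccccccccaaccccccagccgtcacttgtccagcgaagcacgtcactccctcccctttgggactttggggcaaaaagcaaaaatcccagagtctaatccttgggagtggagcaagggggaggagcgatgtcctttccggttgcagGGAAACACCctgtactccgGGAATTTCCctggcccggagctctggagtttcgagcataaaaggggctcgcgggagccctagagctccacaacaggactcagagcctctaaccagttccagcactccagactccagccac
Cxcl2: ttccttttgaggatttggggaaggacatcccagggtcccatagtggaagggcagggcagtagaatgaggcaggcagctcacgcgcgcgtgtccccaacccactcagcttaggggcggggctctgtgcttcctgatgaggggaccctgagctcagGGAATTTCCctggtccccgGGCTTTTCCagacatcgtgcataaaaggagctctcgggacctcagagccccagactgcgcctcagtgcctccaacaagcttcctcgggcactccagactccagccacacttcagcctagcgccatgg
Such a match was held by 7 of 15 promoters of inflammatory mediators (46.7%), those of Cxcl1, Cxcl2, Cxcl9, Cxcl10, Icam1 and Il1rn, against 5.82% of all promoters. Cxcl9 and Cxcl10 hold it although they were not called, so the letters and the calls do not go together throughout. The share with these letters was 6.13% for promoters of all genes examined, 7.54% for genes called higher and 5.39% for genes called lower.

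The neutrophil calprotectin subunits S100a8 and S100a9 were 11.06 and 12.93, and 10.30 and 11.85, in the Axin2-high tumors. In the Axin2-low tumors S100a8 was 4.37 to 4.79 on 5 arrays and 9.17 in VP16LXRa replicate 8, and S100a9 was 4.27 to 4.65 and 7.80 there. Of 7 neutrophil genes 6 were higher, and their summed intensity was 4860 and 16063 against 265 to 1431. Epithelial antimicrobial genes were mixed, with 3 of 12 called higher, 1 called lower and a median of 0.88 that became -0.23 for the 6 genes detected on all 8 arrays. Lcn2, an iron-binding defence protein, was 10.98 and 13.03 against 4.89 to 9.73, and Saa3, an acute phase protein, was 10.55 and 12.82 against 5.46 to 8.40. Pigr, the receptor that carries antibodies across the epithelium, was called lower (-1.31). Saa1 did not go with Saa3, at 9.02 and 5.45 against 8.13 to 10.27. Of 4 blood genes 3 were called higher, Hba-a1, Hbb-b1 (2.21) and Alas2 (2.14), while Hbb-b2 (0.77) was not. Hba-a1 was 12.97 and 14.47 against at most 12.08, and the summed intensity of the list was 8362 and 23551 against 599 to 4535. What part blood and neutrophils have in the inflammatory genes was not tested.

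Paneth cell genes, which a normal mouse colon lacks, were called higher in 6 of 8 cases (median 3.81). The α-defensin Defcr20 was 11.76 and 12.45 in the Axin2-high tumors, but VP16LXRa replicate 8 (9.01), VP16 replicate 2 (8.10) and VP16LXRa replicate 6 (7.03) also detected it, and the other 3 arrays stood at 4.35 to 4.48. This probe differed by 5.87, and the other Defcr20 probe by 1.55. Defa1 (9.16 and 11.63) and Defcr5 (9.39 and 10.57) had the same 3 Axin2-low arrays above the rest. The α-defensin genes are near-identical copies, so their probes may not tell them apart. Pla2g2a, a secreted phospholipase, was 14.97 and 15.01 against 10.81 to 13.85, and lysozyme (Lyz1) overlapped at 9.86 and 11.94 against 4.74 to 9.86.

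**Figure D3:**
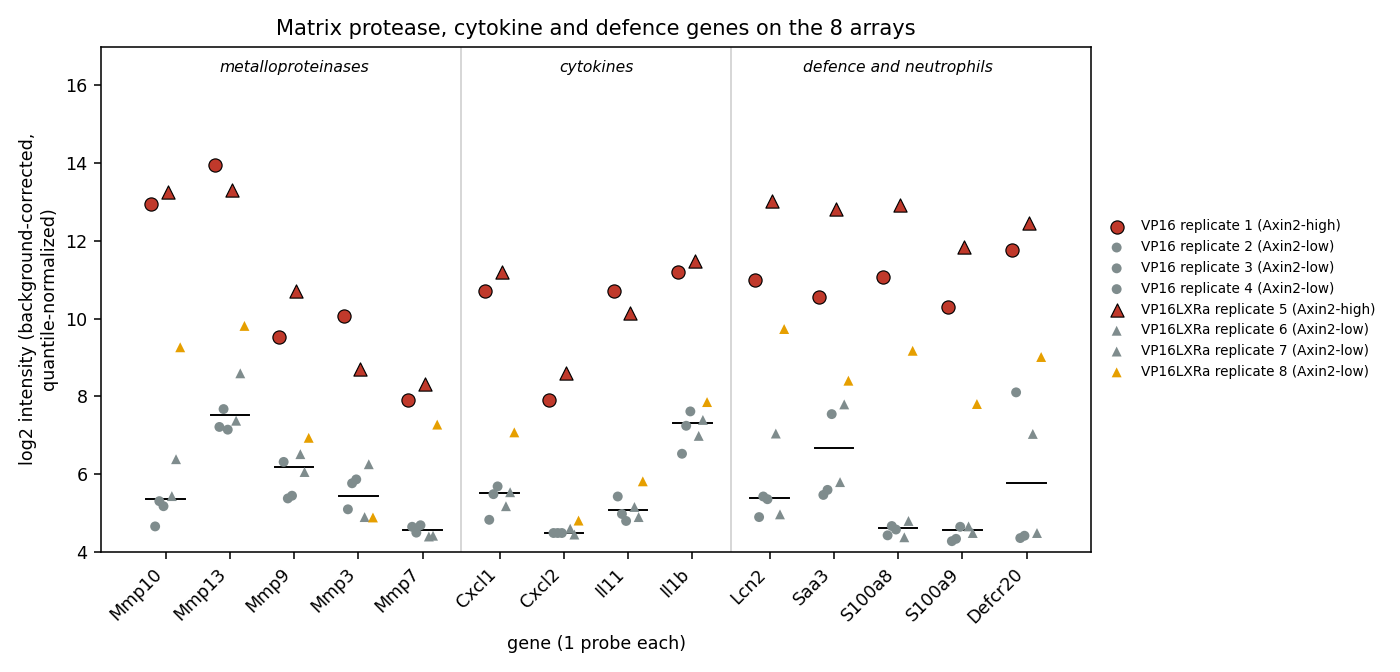
Log2 intensity (vertical axis) of metalloproteinase, cytokine, defence and neutrophil genes on each of the 8 arrays, with symbols and median bars as in the plot of Wnt genes. VP16LXRa replicate 8, in orange, is the highest Axin2-low array for Mmp10 (9.26), Lcn2 (9.73) and S100a8 (9.17).

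Genes of fetal-type and wound epithelium were called higher in 7 of 12 cases, with none lower (median 1.32). Without VP16 replicate 1 there were 5 (median 0.66), and without VP16LXRa replicate 5 there were 9 (median 2.06). The summed intensity of this list, 35464 and 28434, lay within the 16251 to 40005 of the Axin2-low arrays. Spp1 (osteopontin) was detected on no Axin2-low array and was at least 14-fold higher, at 9.23 and 9.15. Krt7 was 11.61 and 11.44 against 8.95 to 9.66, and Il33, an epithelial alarm cytokine, was 8.31 and 7.34 against 5.46 to 6.58. Ly6a (Sca-1), the marker most used for this state, did not separate, at 13.97 and 13.93 against 12.80 to 14.97, and neither did Areg (-0.17) or Anxa3 (0.29). Beyond the lists, keratins of other epithelia ranked among the largest differences. Krt15, of basal cells of stratified epithelia, was 12.25 and 10.35 against 4.70 to 5.46, and the hair-type keratin Krt36 was 9.93 and 11.59 and detected on no Axin2-low array, at least 41.6-fold higher. Onecut2, a homeobox factor, was 9.88 and 9.93, also detected on no Axin2-low array and at least 23.0-fold higher. The lipoxygenase Alox12 (11.10 and 10.94 against 4.87 to 6.95) and Atg9b, an autophagy gene (11.24 and 10.78 against 4.96 to 6.92), were among the genes with the largest differences as well, as was haptoglobin (Hp; 8.86 and 12.16 against 4.41 to 7.13).

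Proliferation genes had no calls. None of 19 genes of DNA replication and none of 16 of mitosis met the rule, with medians of 0.70 and 0.61 and positive differences in 17 and 15 of them. Over all genes, 7.57% were called higher and 7.08% lower, a share at which lists of this size would hold few calls. Mcm2 was 8.91 and 9.22 against 7.81 to 8.44, a difference of 0.89, and Top2a was 9.34 and 9.45 against 8.01 to 9.59. Of 16 genes of ribosome biogenesis and other MYC targets, 4 were called higher: the nucleolar protein Nol5a (now Nop56; 9.19 and 9.47 against 7.18 to 8.00), Polr1a (1.02), Nme1 (1.02) and Srm (1.00), with 1 left without VP16 replicate 2 and 2 without VP16LXRa replicate 6. Without VP16 replicate 1, 5 replication and 3 mitosis genes were called higher.

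Some lists of stromal and immune markers differed between the groups as well. Of 14 fibroblast and matrix genes 9 were called higher (median 1.22): Col1a1 was 9.66 and 10.16 against 6.15 to 7.70, Sparc was 11.61 and 11.87 against 8.67 to 10.20, and Pdgfra differed by 1.12, while Lum (-0.24) and Dpt (-1.35) did not follow. The summed intensity of this list was 25652 and 25221 against 5645 to 13221. Of 10 endothelial genes 5 were higher (median 0.98), with sums of 3065 and 3735 against 1197 to 2214, although Pecam1 (0.40) was not called and only 3 were higher without VP16 replicate 4 or without VP16LXRa replicate 5. Macrophage genes were called in 3 of 11 cases (median 0.99), among them Cd68 (7.63 and 8.78 against 5.87 to 7.38), in 8 without VP16 replicate 1, in 7 without VP16LXRa replicate 7 and in 1 without VP16LXRa replicate 5. Their sums were 6579 and 12658 against 2839 to 6648, so that VP16 replicate 1 lay within the Axin2-low range. On the lower side were B and plasma cell genes, with 6 of 10 called (median -1.93). Cd79b was 5.50 and 5.19 against 6.76 to 10.70, and the sums were 6166 and 6092 against 8926 to 12877. None of 8 T cell genes was higher and 1, Trat1, was called lower (median -0.75), but 5 were lower without VP16LXRa replicate 5, whose sum (1032) lay above that of VP16 replicate 1 (366) and within the 475 to 1807 of the others. Of 5 mast cell genes 2 were higher, Mcpt1 (7.41 and 8.16 against 4.64 to 6.92) and Cma1, and of 5 genes of enteric neurons and glia 1, Gap43, was lower (-1.05). Over all genes, 7.57% were called higher and 7.08% lower, so a single call in a short list does not set that list apart.

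Smooth muscle had a low median, -2.18, but none of its 11 genes was called. The desmin gene Des was 9.57 and 7.42 in the Axin2-high tumors, 8.44 in VP16 replicate 4, and 11.69 to 13.06 in the other 5 tumors. The summed intensity of the list was 23307 and 13816 against 10729 to 94717, the lowest of these again being VP16 replicate 4. Without VP16 replicate 4 all 11 genes were called lower (median -2.64), and without VP16 replicate 1, 7 were. The part that these cell markers have in the differences of the epithelial genes was not tested.

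**Figure D4:**
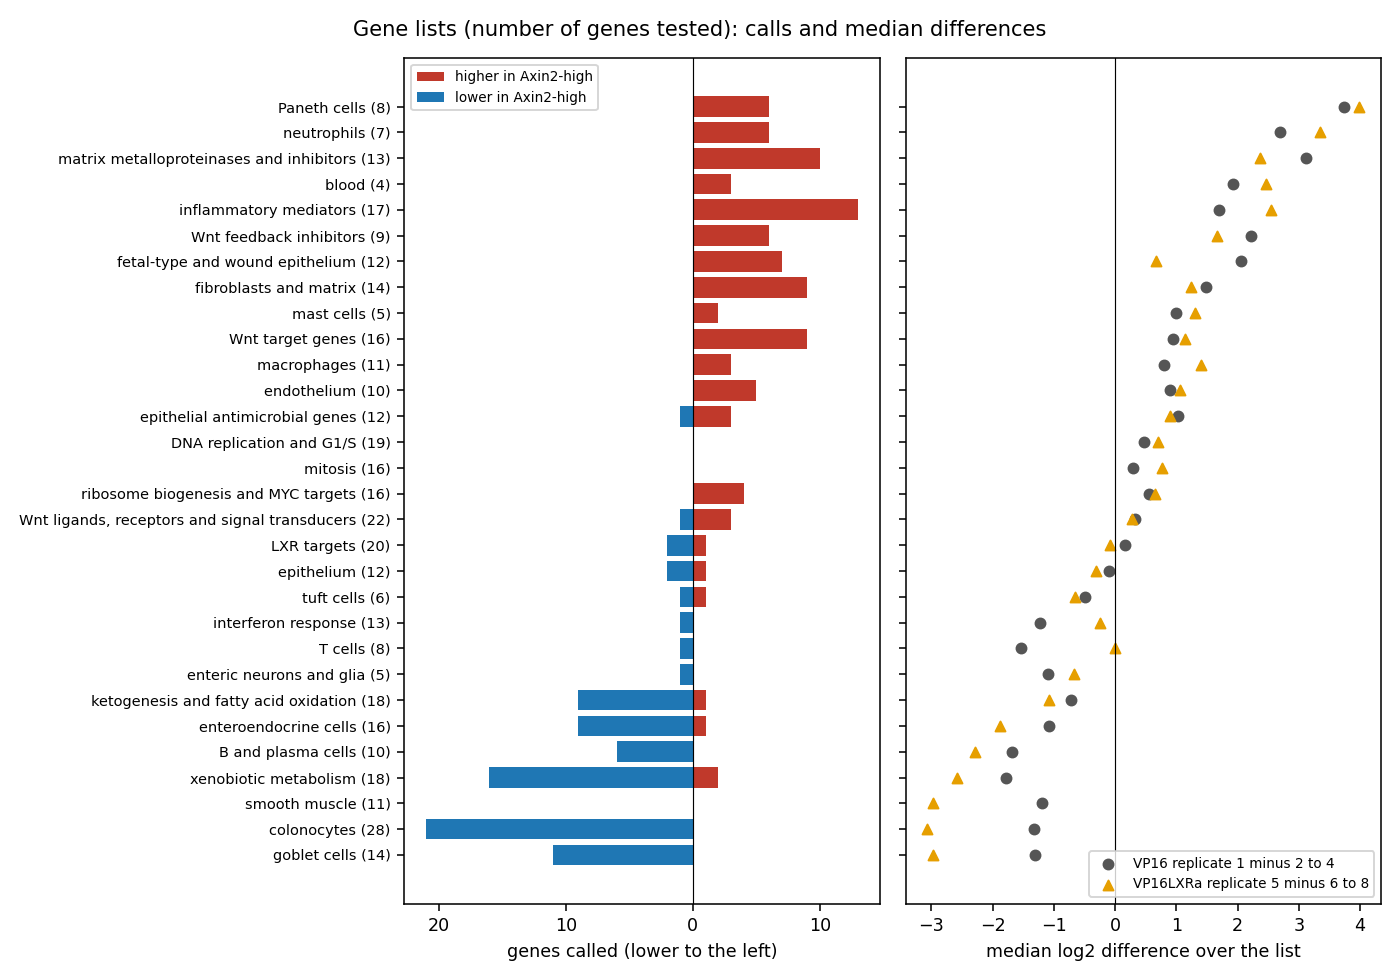
Left, number of genes called higher (red, to the right) or lower (blue, to the left) in the Axin2-high tumors for each of the 30 gene lists, with the number of genes examined in brackets; right, the median log2 difference of the same list within VP16 (circles) and within VP16LXRa (triangles). Colonocytes have 21 genes called lower, and their medians are -1.33 within VP16 and -3.07 within VP16LXRa.

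The Axin2-high tumors could be compared with the 3 Axin2-low tumors of their own genotype separately, so that no array was shared. VP16 replicate 1 lay at least 1 log2 unit above the mean of its 3 fellows for 973 probes and VP16LXRa replicate 5 for 1304, and 727 probes were common to both, 74.7% of the first set and 55.8% of the second. Probes detected on no Axin2-low array, 243 in all, entered only when both Axin2-high arrays detected them. The filter thus favours overlap on this side and adds to the correlation given below, by an amount that was not tested. On the lower side there were 1063 and 1461 probes, of which 719 were common (67.6% and 49.2%). Across all probes the differences correlated with r = 0.76, a description over genes, which are not independent. For the probes called higher the median differences were 1.46 in VP16 and 1.64 in VP16LXRa. For those called lower they were -1.23 and -1.71, and 135 of the 905 were detected in VP16 replicate 1 and not in VP16LXRa replicate 5, against 11 the other way.

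**Figure D5:**
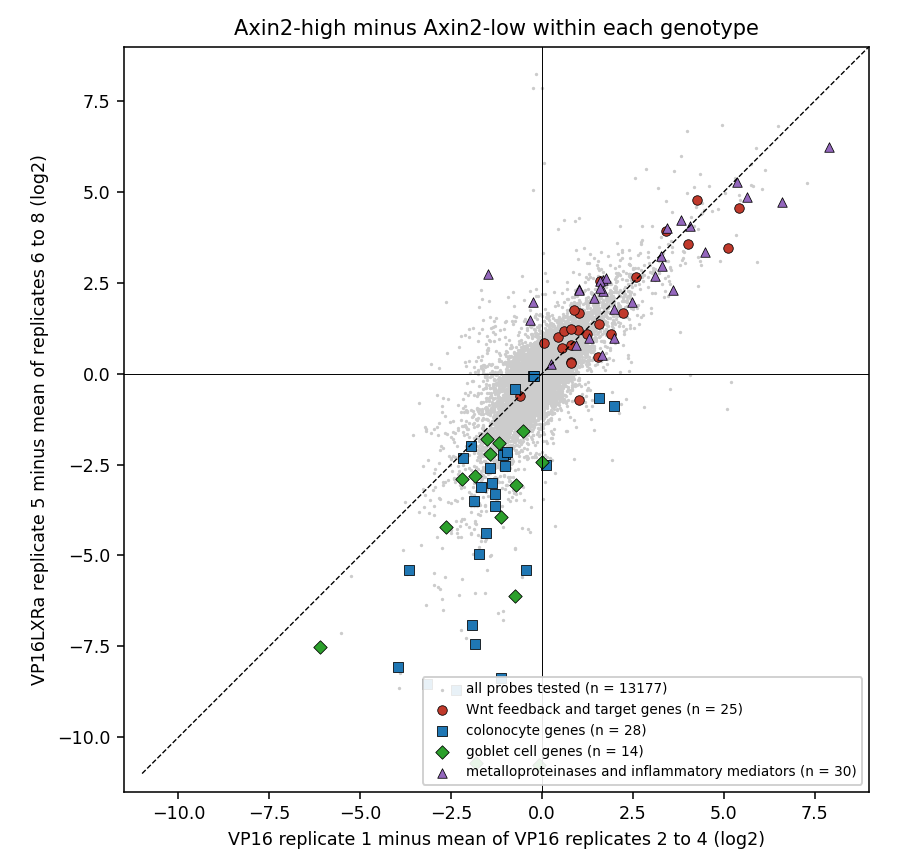
Log2 difference of VP16 replicate 1 from the mean of VP16 replicates 2 to 4 (horizontal axis) against that of VP16LXRa replicate 5 from the mean of replicates 6 to 8 (vertical axis) for 13177 probes (grey) and the genes of selected lists (coloured), with the line of equality dashed. Wnt, metalloproteinase and inflammatory genes lie along the line on the upper right, and colonocyte and goblet genes lie mostly below it.

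The difference between the 2 Axin2-high tumors beyond genotype was tested as a genotype-by-status term in limma, which the choice of arrays does not fix. Each Axin2-high array is a lone sample here and is taken to vary like the Axin2-low arrays. After Benjamini-Hochberg adjustment over all 13177 probes, 26 probes (0.197%) for 25 genes were lower in VP16LXRa replicate 5 and 2 (0.0152%) were higher, and an unadjusted p under 0.05 was reached by 693 (5.26%). All 26 were detected in VP16 replicate 1, and 14 of them were not detected in VP16LXRa replicate 5. They include 6 of the 28 colonocyte and 3 of the 14 goblet cell genes. No gene of the Wnt feedback, Wnt target, metalloproteinase, inflammatory or neutrophil lists passed.

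The largest term was that of 1810010M01Rik (now Zg16), a mucus lectin of goblet cells. It was 15.26 in VP16 replicate 1, within the 15.01 to 15.47 of the Axin2-low tumors, and 4.34 in VP16LXRa replicate 5 (term -10.7, adjusted p = 6.09e-05 in limma). Sycn, a secretory granule protein, was likewise 13.72, within the range of 13.53 to 15.09, and 4.55 (term -9.81, adjusted p = 0.00746). Clca6 (now Clca4a), a colonocyte surface protein, was 12.10 and 4.31 against 12.61 to 13.41 (term -7.24, adjusted p = 0.000487). A second Clca6 probe differed less between the Axin2-high and Axin2-low tumors, by -2.28 against -4.76 for this one. The tissue kallikreins Klk1, Klk1b5 and Klk1b4 were 12.53 to 13.23 in VP16 replicate 1 and 6.55 to 7.65 in VP16LXRa replicate 5 (terms -5.37, -5.72 and -5.47), and as near copies they may share signal. Clca3 (adjusted p = 0.00563), Aqp8 and Car4 (both 0.0101), Cyp2c55, Scin and Krt20 (all 0.0305), Sult1d1 (0.0434), Cdx2 and Guca2a (both 0.0472) passed in the same direction. Retnlb (term -1.40), Dpep1 (-0.30) and Sult1a1 (-1.74), which were low in both Axin2-high tumors, did not pass.

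On the higher side was AY761185, a defensin-like gene, at 12.68 in VP16LXRa replicate 5, 4.43 in VP16 replicate 1 and 4.34 to 5.54 in the others (term 7.87, adjusted p = 0.0101). Defcr-rs7 (now Defa31) was 14.22 in VP16LXRa replicate 5 and 4.38 in VP16 replicate 1, with a term of 8.42 that did not pass (adjusted p = 0.163), since VP16LXRa replicate 8 stood at 7.81. Pdzk1, a scaffold protein, was 7.99 in VP16LXRa replicate 5, 5.53 in VP16 replicate 1 and 4.46 to 4.68 in the others (term 2.43, adjusted p = 0.0472). These counts depend on few arrays: leaving out single Axin2-low arrays left 2 to 17 probes lower, the fewest without VP16LXRa replicate 6 (2), then replicate 7 (10), VP16 replicates 2 and 3 (12 each), VP16 replicate 4 (15) and VP16LXRa replicate 8 (17). Higher probes numbered 0 without VP16LXRa replicate 6, 5 without replicate 8 and 1 without VP16 replicate 2, 3 or 4. The terms of 1810010M01Rik and Clca6 passed under every one of these.

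Among the Axin2-low tumors, VP16LXRa replicate 8 stood nearest to the Axin2-high ones on the higher side. It was the highest of the 6 for 262 of the 935 probes (28.0%), the next being VP16LXRa replicate 7 with 156 (16.7%). On a scale from the mean of the other Axin2-low arrays (0%) to the Axin2-high mean (100%), its median position was 8.77%, where the other arrays lay between -8.96% and 0.969%. On the lower side it did not stand out, being the lowest for 141 of 905 probes (15.6%), against 208 (23.0%) for replicate 7 and 204 (22.5%) for VP16 replicate 4. Its Axin2 value, 9.05, was below that of VP16 replicate 2 (9.15).

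Since each genotype holds 1 Axin2-high tumor, the VP16 and VP16LXRa groups can be compared with Axin2 status as a covariate. In limma 1 probe (0.00759%) was then lower in VP16LXRa and none (0.0%) higher after adjustment over all probes, with 588 (4.46%) at an unadjusted p under 0.05. The probe belongs to Eif2s3y, a translation factor gene on the Y chromosome, at 7.81, 9.23, 9.04 and 9.42 in VP16 replicates 1 to 4 and 5.43, 5.40, 5.32 and 5.54 in VP16LXRa replicates 5 to 8 (term -3.45, SE 0.26, adjusted p = 0.0116). It no longer passed without VP16 replicate 2 (adjusted p = 0.0589) or without VP16LXRa replicate 6 (0.12), 7 (0.0847) or 8 (0.0823). The VP16LXRa values of Eif2s3y lie near the lowest detected level of those arrays (5.24 to 5.47). The labels used here give no sex of the mice. A difference in sex between the groups therefore cannot be told apart from genotype, for this gene or for the other genotype terms. Of the sterol transporters that are LXR targets, Abcg8 was 8.99, 7.91, 8.48 and 7.28 in the VP16LXRa tumors and 6.33, 5.36, 4.62 and 4.44 in the VP16 tumors (term 2.98, SE 0.30). Only 1 VP16 array, replicate 1, detected Abcg8, so its term and SE rest partly on values below detection. With status in the model its adjusted p was 0.0601, and without it 0.749. It passed with status in the model under median scaling (0.0358), an offset of 50 (0.0417) and trended robust moderation (0.0233), and not under the other alternatives. Abcg5 (term 4.10, SE 0.66, adjusted p = 0.413), Srebf1 (0.92) and Scd1 (1.34) did not pass either. By Axin2 status, 1 of 20 LXR targets was called higher and 2 lower, where 7.57% and 7.08% of all genes were. Their median log2 difference was 0.03. The gene called higher was Arl4c (7.02 and 7.30 against 4.78 to 5.89). Mertk (6.61 and 6.76 against 8.09 to 8.75) and Smpdl3a (10.04 and 8.45 against 10.31 to 11.37) were called lower.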

How the data were processed

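Total RNA of 8 colon tumors was labelled and hybridised to Illumina mouse bead arrays. The deposited tables hold, per the file headers, a summarised signal intensity and a detection p-value per probe and array, not normalized. The authors' processed intensities, also deposited, are on a linear scale (array medians 18.04 to 18.16, lowest value -24.3), with the same order of probes within each array (Spearman correlation 1). How they were centred or otherwise processed is not stated. GenomeStudio is named, per the submitters' processing notes, with no version.

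Signals were background-corrected by normexp with the detection p-values, quantile-normalized and log2-transformed with an offset of 16 (neqc, limma 3.58.1, R 4.3.3). Of 25697 probes, 13177 had a detection p under 0.01 on 2 or more arrays and were kept. This minimum was lowered after the data were seen, because a minimum of 4 drops the 398 probes detected on both Axin2-high arrays and at most 1 other. A gene is represented by its brightest kept probe. Differences are on the log2 scale, and levels were not compared between probes.

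The Axin2 contrast was fitted with genotype as covariate and given with no test. The interaction of genotype and status, with 4 residual degrees of freedom, and the genotype term with status as covariate were tested with limma's lmFit and eBayes, with Benjamini-Hochberg adjustment over all kept probes at 0.05. The fits were tested on simulated data. Since nothing says that the samples came from separate mice, p-values measure only the spread between these samples. No file used here names a slide or scan. No array pair held identical values, and the number of arrays limits the precision. A bound ("at least") sets the mean of the detected side against, for each undetected array, the higher of its lowest detected level and the probe's own value.

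The arrays compared, the gene lists and the tests were chosen with earlier results of these data known. Named were the 15 genes with the largest difference in each direction among called probes detected on every array of the higher side (clone and locus names left out), all Wnt feedback and target genes, up to 5 members of every other list by size of difference, up to 8 genes per direction for the interaction and up to 5 for genotype, filled by the smallest p to 4 and 3, and 4 LXR targets. Other list members are named with their values already known. Symbols come from the array files; 17213 of 18138 matched the RefSeq table of GRCm38.p6, and no source used here names the build behind the probes. Alternatives were other background, normalization, offset, filter, moderation and array-weight settings, the authors' processed intensities, other call rules and each array left out in turn. Results for a few genes are not reported here.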

Additional observations from a re-analysis of the deposited data

Results flagged for a closer look

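Within the 6 Axin2-low arrays, 1 array lay far from the other 5 for 29 of 187 named genes (15.5%) and for 6 of 30 gene lists. The rule flags about 1 in 20 when values are independent and follow a normal distribution. Here the genes were chosen from these same arrays, many share a list, and some lie near the lowest detected level. No excess over chance can therefore be read from these shares. VP16LXRa replicate 8 was the array far from the others 17 times and VP16 replicate 4 16 times, and VP16 replicate 2 and VP16LXRa replicate 6 were each once.

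VP16LXRa replicate 8 lay above the others, toward the Axin2-high tumors, for S100a8 (9.17, others 4.37 to 4.79), S100a9 (7.80, others 4.27 to 4.65), Atg9b (6.92, others up to 5.43), Hp (7.13, others up to 5.36), Wif1 (7.75, others up to 5.61), Notum (6.79, others up to 4.87) and Prox1 (6.24, others up to 4.87). The same was so for Wnt10a (5.38) and Wnt6 (5.36), neither detected there, Isl1 (7.43), Mmp7 (7.27) and Spp1 (5.05, not detected). For AY761185 (5.54) and Defcr-rs7 (7.81) it lay toward VP16LXRa replicate 5 alone, as VP16 replicate 1 stood at 4.43 and 4.38. It lay below them for Slc5a8 (11.27, others 12.19 to 12.54). Its mean list scores, in log2 units centred on all arrays, were 0.43 for neutrophils (others -1.48 to -0.97) and -0.06 for fetal-type and wound epithelium (others -0.61 to -0.41).

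VP16 replicate 4 lay below the other Axin2-low arrays for the goblet and secretory genes Clca3 (14.43, others 15.33 to 15.47), Sycn (13.53, others 14.57 to 15.09) and Ang4 (11.08, others 14.65 to 15.09) and for the tuft cell gene Dclk1 (6.02). It was also lowest for the matrix genes Col1a1 (6.15), Sparc (8.67) and Col5a1 (8.13), the muscle genes Des (8.44), Tagln (6.45), Synm (6.62) and Actg2 (10.88), and the endothelial genes Vwf (7.30) and Robo4 (6.66). Its list scores were 0.19 for goblet cells, -0.95 for fibroblasts and -1.90 for smooth muscle (others 0.35 to 1.56). VP16LXRa replicate 6 was low for the interferon gene Oasl2 (8.35, others 11.05 to 12.47), and VP16 replicate 2 had the lowest score for ribosome biogenesis and MYC targets (-0.44, others -0.11 to -0.02).

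Among the VP16 arrays, replicate 1 had a median signal of 145.8 against 139.7 to 140.1 for the other 3. The interaction term passed for 16 named genes, with a spread taken from the Axin2-low arrays alone, since each arm of the comparison has 1 Axin2-high array. It is given here as the difference in VP16LXRa minus that in VP16. It was negative for Clca3 (-8.88), Aqp8 (-4.10), Car4 (-5.40), Cyp2c55 (-6.34), Clca6 (-7.24), Scin (-5.18), Krt20 (-5.60), 1810010M01Rik (-10.7), Sycn (-9.81), Klk1b5 (-5.72), Klk1b4 (-5.47), Klk1 (-5.37), Cdx2 (-3.11) and Sult1d1 (-3.46), and positive for AY761185 (7.87) and Pdzk1 (2.43).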

How the results depend on the processing

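The 935 probes higher in the Axin2-high tumors became 407 with no background correction, 518 with detection on all 8 arrays, 269 at a difference of at least 2 log2 units and 2778 by non-overlap alone. The 905 lower became 396, 218 and 2400 with no background correction, at 2 log2 units and by non-overlap alone. With detection on at least 4 arrays, 708 were higher and 901 lower. Leaving out 1 array gave 940 to 1258 higher and 877 to 1341 lower. Median scaling moved the share of calls that were higher from 50.8% to 58.1%; over all settings it was 44.0% to 58.1%. The 407 and 396 calls without background correction were all among the main ones. For the difference between the Axin2-high tumors, 2 probes higher became 8 with no background correction, 6 with an offset of 50, 1 each with median scaling, the authors' processed intensities and trended robust moderation, 0 each with detection on at least 4 arrays (an alternative chosen after seeing the data) and on all 8, 5 on at least 1 array and 9 with no filter, and 0 to 5 without single arrays. The 26 lower became 17 with no background correction, 12 on all 8 arrays, 51 with trended robust moderation and 2 to 17 without single arrays. It could not be fitted without either Axin2-high array. For genotype, 0 probes higher became 1 each with median scaling, an offset of 50 and trended robust moderation, 2 without both Axin2-high arrays and 0 to 2 without single arrays. The 1 lower became 0 each with no background correction, on all 8 arrays and with no status covariate, 2 without both Axin2-high arrays and 0 to 2 without single arrays. Beyond what removing samples or probes does by construction, the cause was not tested.

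Among the 187 named genes, none that was called for status reversed direction. Genes not called were left out of that count, and some changed sign, such as Sfrp1 (0.16, and -0.71 within VP16LXRa alone). For the interaction (12 genes) and genotype (9 genes) no reversal was counted. There a change of sign counted only with an unadjusted p under 0.05 in limma. The median of a list changed sign with detection on all 8 arrays for enteroendocrine (0.54, 3 genes left), antimicrobial (-0.23) and LXR target genes (-0.07), and for LXR targets without VP16 replicate 1 (-0.08). Signal over background limits genes near the lowest detected level, and the Axin2-high side has only 2 arrays. No paired analysis was possible because replicate numbers run on from one genotype to the other, so the groups share none.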
